A study of Homo sapiens with 18 samples.

Results

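Genes of lipid droplets and fatty acid storage, HILPDA, PLIN2, PLIN3, FABP3, FABP5, PNPLA2, DGAT1, DGAT2, G0S2 and LPIN1, were followed through RNA-seq of an ovarian cancer cell line with and without XIST, in normoxia and in hypoxia. They were picked by symbol as a list of 10 of the 28277 genes in the count table. OVCAR3 is an established ovarian cancer line, and the OVCAR3-KRAB cells of each group carried dCas9-KRAB, a nuclease-dead Cas9 fused to a repressor domain that an sgRNA directs to a promoter. Clonal cells held sgCtl, a guide against Gal4 that has no target in these cells, or 1 of 2 guides against XIST, sgXIST7 and sgXIST9. Each clone was kept in normoxia or at 1% oxygen for 24 h, with 3 replicates of each of the 6 groups and 18 libraries in all. Each guide was represented by clonal cells, so that effects of the guide and of the clone cannot be told apart. The study describes the replicates as biological, the labels do not say what separated them, and p-values measure the spread between these libraries.

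A lipid droplet is a store of triglyceride and steryl esters with a coat of proteins. Fatty acids are carried in the cytosol by fatty acid binding proteins, built into triglyceride by a chain of acyltransferases and lipins that ends with DGAT1 or DGAT2, and covered by perilipins. The store is opened by the lipase PNPLA2, also called ATGL, which is held back by G0S2 and by HILPDA, itself a known target of hypoxia-inducible factors. Cells short of oxygen are known to gather lipid droplets, and droplets are a common feature of cancer cells.

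Total counts per library ranged from 11794375 to 24906936, and values below are CPM, counts scaled by the TMM-adjusted library size, unless stated otherwise. XIST checked the labels. It had 4213 to 11209 counts in the sgCtl normoxia libraries and 1 to 5 in those of sgXIST7, and its mean CPM in sgXIST9 was 9.39% of that in sgCtl in normoxia and 13.6% in hypoxia. The summed CPM of a list of 10 hypoxia-induced genes was 189 to 500.5 in the 9 normoxia libraries and 1651 to 3364 in the 9 hypoxia libraries. In normoxia this sum was higher in sgCtl, at 431 to 500.5, than in sgXIST7, at 195 to 293, and sgXIST9, at 189 to 191. Of 10 epithelial and Mullerian markers, EPCAM and KRT18 had at least 156 and 129 CPM in each library, and KRT8 had 4.07 to 43.3 CPM. The others were low: CDH1 had at most 2 counts, MUC16 at most 4, KRT19 at most 8, WT1 at most 14, MSLN at most 16 and ESR1 at most 70, and PAX8 at most 5.94 CPM. Of 10 adipocyte markers, RETN and PCK1 had 0 counts in each library, ADIPOQ and LEP at most 1, and FABP4 at most 6. PLIN1, at most 26 counts, was called higher in hypoxia in each clone and is described with the coat genes. The summed CPM of that list was 55.9 to 60.8 in normoxia and 63.3 to 83.2 in hypoxia in sgCtl, 69.9 to 70.9 and 63.5 to 75.6 in sgXIST7, and 58.5 to 60.4 and 62.4 to 74.7 in sgXIST9. ADIPOR2, a receptor that many other cells carry, held 55.3 to 81.4 CPM of it. Of 8 fibroblast markers, COL3A1 had 356 to 1060.4 CPM, COL1A2 0.0773 to 306 and THY1 9.24 to 43.2, while COL1A1 had at most 7.08 CPM, DCN at most 30 counts, PDGFRA at most 20, FAP at most 8 and LUM at most 7. The third replicate lay farthest from the other replicates of its group in each hypoxia group, by a root mean square difference over genes of 0.763 in sgCtl, 0.534 in sgXIST7 and 0.597 in sgXIST9 on the log2 scale, against 0.305 to 0.461 over the normoxia libraries.

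Differences were tested with edgeR's quasi-likelihood test in a single fit of the 6 groups. A gene was called when its p-value, adjusted over the 14938 genes tested with the Benjamini-Hochberg method, was under 0.01 and its absolute log2 fold change above 1. Of the 10 members, 8 passed the filter on low counts and were tested. G0S2, the inhibitor of PNPLA2, had 0 counts in each of the 18 libraries, which allows up to 3 counts or 0.13 to 0.266 CPM in a library (counting error only). FABP3, the fatty acid binding protein typical of heart muscle, had 5 counts over the 18 libraries and at most 1 in any. RNA of these genes was thus not detectable at this depth under any condition.

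Hypoxia changed 5 of the 8 members tested in at least 1 clone, in both directions. In sgCtl, 4 rose (HILPDA, PLIN2, DGAT1 and DGAT2) and FABP5 fell, so that 5 of 8 were called, beside 19.7% of the genes tested. In sgXIST7, HILPDA, PLIN2 and DGAT1 rose and FABP5 fell, 4 of 8 beside 27.3%. In sgXIST9, HILPDA and DGAT2 rose and FABP5 fell, 3 of 8 beside 23.3%. The median log2 fold change of the 8 members was 0.88, 0.39 and 0.74 in sgCtl, sgXIST7 and sgXIST9, against 0.02, 0.01 and 0.09 over the genes tested. HILPDA and FABP5 were called in each of the 3 clones. In bulk RNA, fewer cells of a type and less RNA per cell cannot be told apart.

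**Figure D1:**
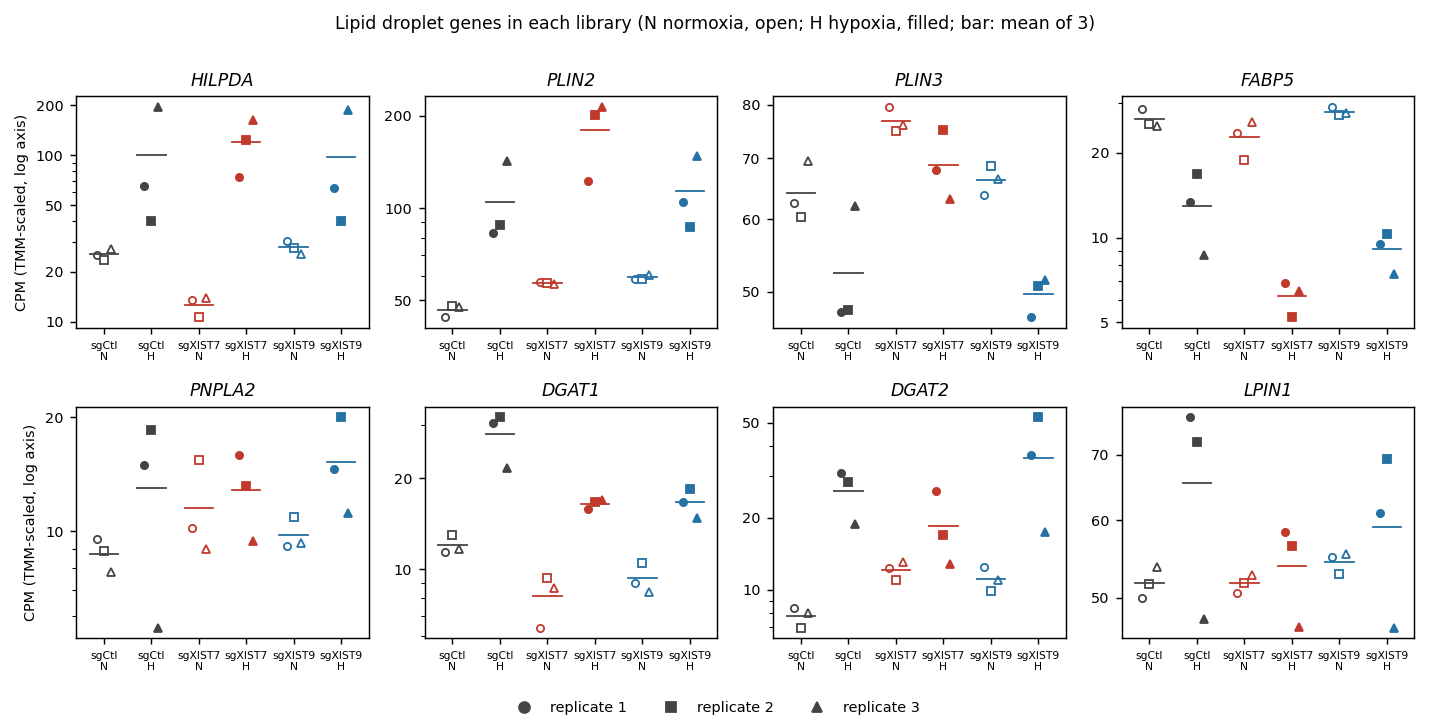
The CPM of the 8 members tested is plotted for each of the 18 libraries on log axes, with clones by color, normoxia as open and hypoxia as filled symbols, replicates by shape and the mean of 3 libraries as a bar. HILPDA and PLIN2 lie higher and FABP5 lower in the hypoxia libraries of each clone without overlap, and in hypoxia the third replicate (triangle) has the highest HILPDA and PLIN2 and the lowest PNPLA2, DGAT2 and LPIN1 of its group.

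HILPDA, the small droplet protein that restrains PNPLA2 (chromosome 7, 128455830 to 128458418, plus strand, hg38), had the highest log2 fold change of the members in each clone, though in sgCtl and sgXIST9 that of DGAT2 was higher without replicate 3. In sgCtl it was at 25.3, 23.5 and 27.3 CPM in normoxia and at 65.0, 40.4 and 195 CPM in hypoxia. In sgXIST7 the normoxia libraries had 13.4, 10.6 and 13.9 CPM and the hypoxia libraries 73.7, 124 and 163 CPM. In sgXIST9 they had 30.6, 27.7 and 25.5 CPM and 63.6, 40.3 and 188 CPM. Each hypoxia library was above each normoxia library of its clone, and replicate 3 was the highest in hypoxia in each clone. The rise was 1.97 ± 0.53 on the log2 scale in sgCtl (± SE, n = 3 and 3; edgeR adjusted p = 0.0054), 3.24 ± 0.56 in sgXIST7 (edgeR adjusted p = 0.0001) and 1.80 ± 0.53 in sgXIST9 (edgeR adjusted p = 0.0082). The call in sgCtl and in sgXIST9 was close to the threshold. In sgCtl the edgeR adjusted p was 0.020, 0.022 and 0.017 without normoxia replicate 1, 2 or 3, and 0.084, with a log2 fold change of 1.05, without hypoxia replicate 3. In sgXIST9 it was 0.022, 0.027 and 0.031 without normoxia replicate 1, 2 or 3, and 0.13, with a log2 fold change of 0.90, without hypoxia replicate 3. With replicate 3 of each group left out, the log2 fold changes were 1.11 in sgCtl (edgeR adjusted p = 0.012), 3.05 in sgXIST7 (2e-05) and 0.84 in sgXIST9 (0.037).

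PLIN2, the perilipin found on droplets of most cell types (chromosome 9, 19115761 to 19127606, minus strand), was higher in hypoxia in each clone, again without overlap. Its CPM went from 43.9, 48.0 and 47.5 to 82.6, 88.3 and 142 in sgCtl. It went from 57.2, 56.9 and 56.6 to 123, 202 and 214 in sgXIST7. In sgXIST9 it went from 58.7, 58.8 and 60.4 to 105, 86.7 and 148. The 9 normoxia libraries lay between 43.9 and 60.4 CPM, and the hypoxia libraries between 82.6 and 214 CPM. The log2 fold change was 1.16 ± 0.22 in sgCtl (edgeR adjusted p = 0.00034), 1.66 ± 0.22 in sgXIST7 (6.6e-06) and 0.93 ± 0.22 in sgXIST9 (0.0017), the last under the fold limit of the call. Without hypoxia replicate 3 of sgCtl the log2 fold change there was 0.88, under the fold limit, and without hypoxia replicate 2 of sgXIST9 it was 1.09 there and PLIN2 was called.

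PLIN3, a perilipin that moves between cytosol and new droplets (chromosome 19, 4838341 to 4867667, minus strand), was not called in any clone and had a lower mean in hypoxia in each. It was at 62.6, 60.3 and 69.4 CPM in normoxia and 47.6, 47.8 and 62.0 CPM in hypoxia in sgCtl. In sgXIST9 it had 63.8, 68.6 and 66.4 CPM and then 46.9, 50.7 and 51.5 CPM, without overlap. In sgXIST7 the ranges overlapped, with 75.0 to 79.6 CPM in normoxia and 63.2 to 75.1 CPM in hypoxia. The log2 fold changes were -0.29 ± 0.11, -0.16 ± 0.11 and -0.41 ± 0.11 in sgCtl, sgXIST7 and sgXIST9 (edgeR adjusted p = 0.034, 0.21 and 0.0039). Counts per exon length put the 2 perilipins on a common scale. The ratio of PLIN2 to PLIN3 per length was 0.773 ± 0.0633 in sgCtl normoxia and 2.08 ± 0.307 in sgCtl hypoxia (SD, n = 3), 0.788 ± 0.0217 and 2.80 ± 0.842 in sgXIST7, and 0.953 ± 0.0363 and 2.41 ± 0.619 in sgXIST9. In the 9 normoxia libraries PLIN3 was thus the more abundant per length, and in the 9 hypoxia libraries PLIN2 was.

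Promoter sequence is shown for these perilipins and for PNPLA2, which differ in their response, with matches to the core of the hypoxia response element in capitals. The sequences come from a table of RefSeq promoters (build GRCh38.p14, the hg38 assembly of the counts) that held 6 of the 10 members; HILPDA, DGAT1, DGAT2 and FABP5 are named only. The letters searched were ACGTG and GCGTG on both strands, in the 250 bases before the gene's start. Of 35114 such windows of all genes, 43.2% held at least 1 match and 7.76% at least 3, and 3.22% held at least 4. PLIN2 had 4 matches, of which 2 are the same palindrome read on both strands. PLIN3 had 3 matches and PNPLA2 had 0. G0S2, not detected here, had 4 and FABP3 had 2, while the 3 listed starts of LPIN1 had 0, 0 and 1. A match says only that the letters are there. The last 114 bases of the PLIN2 window lie inside the gene as the count table lists it, so that only the outer 136 bases and the 22 bases with its 3 further matches are shown. They are given 5′ to 3′ on the strand of the gene.
PLIN2, chr9:19127607-19127742, minus strand: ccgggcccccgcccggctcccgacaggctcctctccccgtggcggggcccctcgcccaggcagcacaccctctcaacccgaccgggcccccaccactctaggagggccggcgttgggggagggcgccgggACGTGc
PLIN2, chr9:19127556-19127577, minus strand: GCGTGctgccgcgggtCACGTG
PLIN3, chr19:4867668-4867917, minus strand: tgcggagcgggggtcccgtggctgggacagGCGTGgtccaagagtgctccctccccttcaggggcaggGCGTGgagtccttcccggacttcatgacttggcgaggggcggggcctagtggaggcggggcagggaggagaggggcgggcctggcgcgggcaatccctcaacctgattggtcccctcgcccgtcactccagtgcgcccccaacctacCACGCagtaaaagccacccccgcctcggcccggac
PNPLA2, chr11:818664-818913, plus strand: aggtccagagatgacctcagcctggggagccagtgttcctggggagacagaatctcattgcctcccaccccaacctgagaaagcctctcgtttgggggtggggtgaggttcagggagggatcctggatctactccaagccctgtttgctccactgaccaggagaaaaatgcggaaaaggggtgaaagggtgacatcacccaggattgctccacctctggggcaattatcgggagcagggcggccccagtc
The palindrome CACGTG in PLIN2 starts 69 bases before the RefSeq gene start.

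DGAT2 and DGAT1, unrelated enzymes that each add the last acyl chain of triglyceride, had a higher mean in hypoxia in each clone, and each was called in 2 of the 3 clones. DGAT2 (chromosome 11, 75768733 to 75801536, plus strand) had 8.39, 6.96 and 8.04 CPM in sgCtl normoxia and 30.8, 28.2 and 18.8 CPM in sgCtl hypoxia. In sgXIST9 it had 9.88 to 12.5 CPM in normoxia and then 36.5, 52.8 and 17.4 CPM. In sgXIST7 it had 12.3, 11 and 13.1 CPM and then 25.8, 17.0 and 12.8 CPM, and there hypoxia replicate 3 fell within the normoxia range. DGAT2 rose by 1.74 ± 0.32 in sgCtl and 1.68 ± 0.31 in sgXIST9 on the log2 scale (edgeR adjusted p = 0.00028 and 0.00023), while in sgXIST7 the log2 fold change was 0.62 ± 0.31 (0.095). Without replicate 3 of each group the log2 fold changes were 1.94 in sgCtl, 0.88 in sgXIST7 (edgeR adjusted p = 0.0034) and 2.0 in sgXIST9. The call in sgCtl was lost without replicate 1 of each group (1.66, edgeR adjusted p = 0.017) and without replicate 2 (1.60, 0.012). That in sgXIST9 was lost without replicate 2 of each group (1.20, 0.031). The response in sgXIST7 differed from that in sgCtl by -1.12 ± 0.44 and from that in sgXIST9 by -1.06 ± 0.43 on the log2 scale, neither past the threshold (edgeR adjusted p = 0.12 and 0.24).

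DGAT1 (chromosome 8, 144314584 to 144326852, minus strand) was above its normoxia range in each hypoxia library. It went from 11.4, 13.0 and 11.7 CPM to 30.6, 31.9 and 21.7 CPM in sgCtl, from 6.40, 9.33 and 8.67 CPM to 15.8, 16.7 and 16.9 CPM in sgXIST7, and from 9.02, 10.5 and 8.41 CPM to 16.7, 18.4 and 14.8 CPM in sgXIST9. Replicate 3 was the lowest of the hypoxia libraries in sgCtl and sgXIST9. The log2 fold change was 1.23 ± 0.17 in sgCtl, 1.02 ± 0.17 in sgXIST7 and 0.84 ± 0.17 in sgXIST9 (edgeR adjusted p = 1.4e-05, 6.4e-05 and 0.00044), the last under the fold limit. The call in sgXIST7 was lost, at 0.87, without normoxia replicate 1 of sgXIST7. DGAT1 shares exon sequence with HSF1 on the other strand and with MIR6848, and the strand setting of the counting is not given in the sources used here. The count table also lists exons of DGAT1 on an alternate contig, with a length of 7306 bases against 3653 on the main chromosome alone. How reads that match both were counted is not given. The counts of DGAT1 are uncertain to that extent.

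FABP5, the epidermal type of fatty acid binding protein (chromosome 8, 81280536 to 81284775, plus strand), was the member that fell in each clone. It had 28.6, 25.4 and 24.9 CPM in sgCtl normoxia and 13.4, 16.8 and 8.68 CPM in sgCtl hypoxia. In sgXIST7 it had 23.6, 18.8 and 25.8 CPM and then 6.88, 5.21 and 6.47 CPM, and in sgXIST9 29.1, 27.2 and 27.7 CPM and then 9.48, 10.3 and 7.45 CPM. No hypoxia library reached the lowest normoxia library of its clone. FABP5 fell by 1.01 ± 0.20, 1.88 ± 0.20 and 1.62 ± 0.20 on the log2 scale in sgCtl, sgXIST7 and sgXIST9 (edgeR adjusted p = 0.0004, 6.6e-07 and 3.2e-06). In sgCtl it lay at the fold limit, with a log2 fold change of -0.95 without normoxia replicate 1 and -0.79 without hypoxia replicate 3, and -0.98 with DESeq2. FABP5 has near-identical processed copies in the genome. The copy listed in the table, FABP5P3, had 34 counts over the 18 libraries and at most 7 in any, and how reads with several matches were counted is not given.

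PNPLA2, the first lipase of triglyceride breakdown (chromosome 11, 818914 to 825571, plus strand), and LPIN1, a phosphatidate phosphatase that also acts in the nucleus (chromosome 2, 11677544 to 11827407, plus strand), were not called in any clone. PNPLA2 had 9.53, 8.89 and 7.81 CPM in sgCtl normoxia and 15, 18.5 and 5.58 CPM in sgCtl hypoxia, so that hypoxia replicate 3 lay below the normoxia libraries and the other two above. LPIN1 did likewise, with 50, 51.6 and 53.7 CPM in normoxia and 76.5, 72.2 and 47.6 CPM in hypoxia. The log2 fold changes in sgCtl, sgXIST7 and sgXIST9 were 0.59, 0.17 and 0.64 for PNPLA2 (SE 0.32 to 0.33; edgeR adjusted p = 0.15, 0.67 and 0.1) and 0.34, 0.06 and 0.12 for LPIN1 (SE 0.16; 0.082, 0.76 and 0.55). Without replicate 3 of each group they were 0.87 (edgeR adjusted p = 0.0057), 0.20 and 0.80 (0.0075) for PNPLA2, and 0.55 (0.0012), 0.18 and 0.28 for LPIN1, still under the fold limit.

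**Figure D2:**
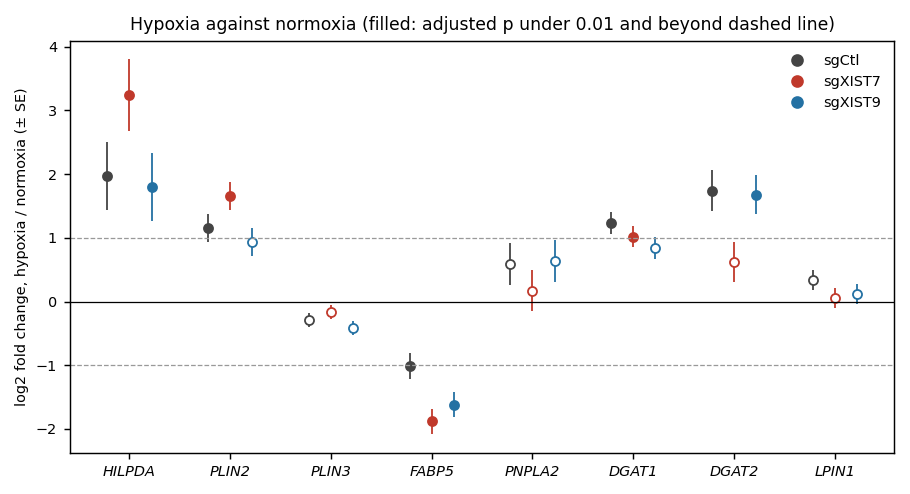
The log2 fold change of hypoxia over normoxia (vertical axis) is given with its SE for the 8 members tested in sgCtl (gray), sgXIST7 (red) and sgXIST9 (blue), with filled symbols where the gene was called and dashed lines at the fold limit. HILPDA, from 1.80 to 3.24, is the highest member with the 3 replicates (without replicate 3, DGAT2 is higher in sgCtl and sgXIST9) and FABP5, from -1.88 to -1.01, the lowest, while PLIN3, PNPLA2 and LPIN1 have open symbols in each clone.

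For 5 of the 8 members, hypoxia replicate 3 lay at the same end of the range in each of the 3 clones. The share of all genes tested that did so is not given. Over all genes replicate 3 was also the farthest library of each hypoxia group (0.763, 0.534 and 0.597 in sgCtl, sgXIST7 and sgXIST9), so the count is not read as particular to the members. Relative to the mean of the first and second replicates, HILPDA in replicate 3 was 3.70-fold in sgCtl, 1.65-fold in sgXIST7 and 3.62-fold in sgXIST9, and PLIN2 was 1.66-fold, 1.32-fold and 1.55-fold. PNPLA2 was at 0.333, 0.647 and 0.649 of that mean, DGAT2 at 0.637, 0.597 and 0.389, and LPIN1 at 0.640, 0.813 and 0.715. HILPDA and PLIN2 were thus highest, and PNPLA2, DGAT2 and LPIN1 lowest, in replicate 3 in 3 of 3 clones. PLIN3, FABP5 and DGAT1 had no place that held in each clone. In the same libraries the summed CPM of the hypoxia-induced list was the highest of its group, at 2871 against 2319 and 2361 in sgCtl, 3364 against 2351 and 2956 in sgXIST7, and 2614 against 1651 and 1862 in sgXIST9. The part of the hypoxia-induced genes in the members' spread was not tested. The ratio of HILPDA to PNPLA2 per length, the inhibitor to its lipase, was 4.54, 4.52 and 5.98 in sgCtl normoxia and 7.41, 3.73 and 59.7 in sgCtl hypoxia. It was 2.26, 1.18 and 2.65 and then 7.94, 16.1 and 29.7 in sgXIST7, and 5.72, 4.34 and 4.67 and then 7.45, 3.44 and 28.6 in sgXIST9. In sgXIST7 the ratio was higher in each hypoxia library, while in sgCtl and sgXIST9 hypoxia replicate 2 was below the normoxia libraries.

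**Figure D3:**
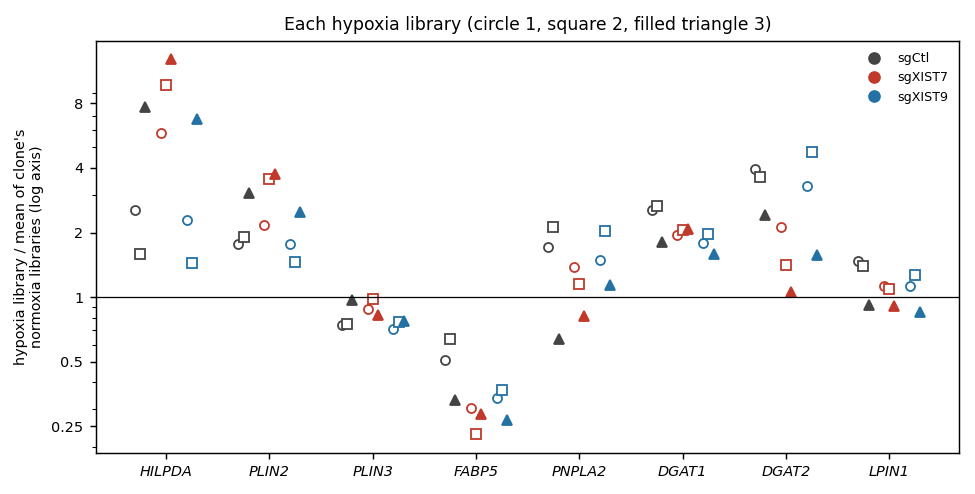
Each hypoxia library is plotted as its CPM divided by the mean CPM of the 3 normoxia libraries of its clone (log axis), for the 8 members tested, with the third replicate as a filled triangle. The triangles are the highest of their clone for HILPDA and PLIN2 and the lowest for PNPLA2, DGAT2 and LPIN1.

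**Figure D4:**
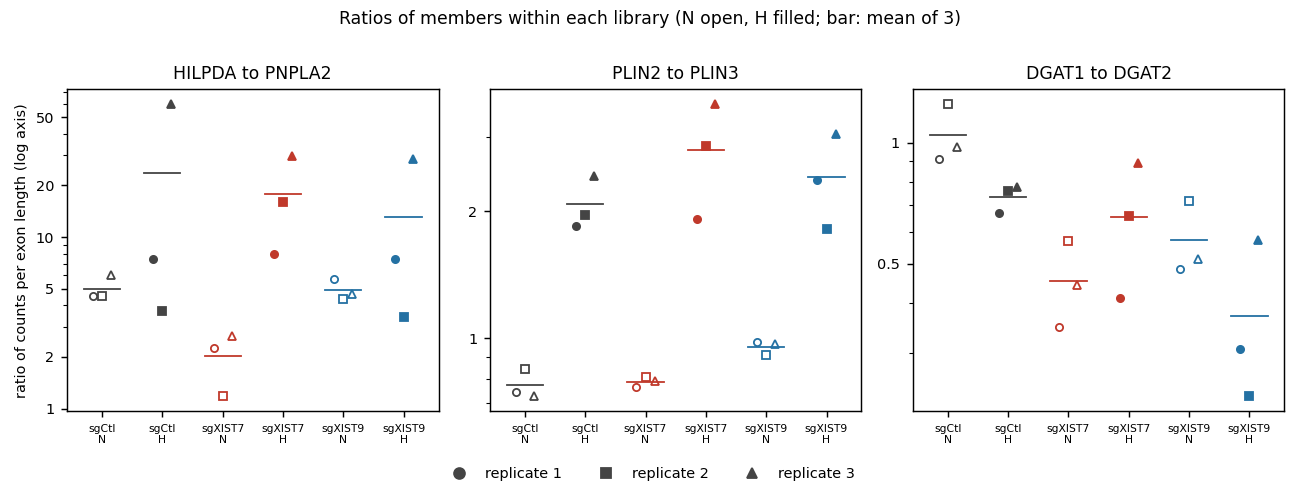
Ratios of counts per exon length within each library are plotted on log axes for HILPDA to PNPLA2, PLIN2 to PLIN3 and DGAT1 to DGAT2, with normoxia open, hypoxia filled and the mean of 3 as a bar. PLIN2 to PLIN3 is below 1 in the 9 normoxia libraries and above 1 in the 9 hypoxia libraries, and HILPDA to PNPLA2 reaches 59.7, 29.7 and 28.6 in hypoxia replicate 3s of sgCtl, sgXIST7 and sgXIST9.

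The order of the members per length changed with oxygen. In sgCtl normoxia the mean RPKM was 39.0 for FABP5, 28.7 for PLIN3, 22.1 for PLIN2, 18 for HILPDA and 7.60 for LPIN1, with no overlap between neighbors, and 3.62, 3.30 and 3.18 for PNPLA2, DGAT1 and DGAT2, which overlapped. In sgCtl hypoxia HILPDA with 70.9 ± 58.8 and PLIN2 with 49.6 ± 15.5 (SD, n = 3) led and overlapped, above PLIN3 with 23.5 and FABP5 with 19.2, which also overlapped. The same 2 genes led in hypoxia in sgXIST7, with 85.3 for HILPDA and 85.6 for PLIN2, and in sgXIST9, with 68.9 and 53.9. The ratio of DGAT1 to DGAT2 per length was 1.05 ± 0.181 in sgCtl normoxia and 0.734 ± 0.0574 in sgCtl hypoxia (SD, n = 3). In sgXIST9 it was 0.572 ± 0.125 and 0.372 ± 0.179, and in sgXIST7 0.454 ± 0.111 and 0.653 ± 0.240, with overlap of normoxia and hypoxia in both. The uncertainty of the counts of DGAT1 given above holds for its RPKM and for this ratio.

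Knockdown of XIST in normoxia left the members under the limits of the call in both clones. Against sgCtl, 0 of 8 members were called in sgXIST7, beside 7.76% of the genes tested, and 0 of 8 in sgXIST9, beside 7.70%. DESeq2 called 0 in either, beside 5.39% and 5.44% of the 22979 genes it tested. At an unadjusted p under 0.05 there were 2 in sgXIST7 and 1 in sgXIST9. No share over all genes is given for the unadjusted limit, here or below, so those counts say nothing particular about the members. HILPDA was lower in each sgXIST7 library (10.6 to 13.9 CPM) than in each sgCtl library (23.5 to 27.3 CPM), with a log2 fold change of -1.0 ± 0.54 (edgeR adjusted p = 0.21). The standard error comes from the spread of all 6 groups, hypoxia included. In a fit of these 2 groups alone the log2 fold change was -0.99 (edgeR adjusted p = 0.00049), at the edge of the fold limit. In sgXIST9 it was 0.14 ± 0.52 (0.9), with overlapping libraries. Between the KD clones, HILPDA differed by -1.14 ± 0.53 (sgXIST7 against sgXIST9; edgeR adjusted p = 0.23) and was called in a fit of these groups alone (-1.13, 0.00036). No member was called between the clones in the fit of 6 groups, beside 3.40% of the genes tested, with 1 at an unadjusted p under 0.05. DESeq2 called 0, beside 2.62% of its genes.

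A further 4 members had normoxia libraries in sgXIST7 that did not overlap those of sgCtl, all by less than the fold limit. With HILPDA these were 5 of 8 members, beside 45.5% of the genes tested whose libraries did not overlap. PLIN2 was higher by 0.29 ± 0.22 (edgeR adjusted p = 0.39), PLIN3 by 0.26 ± 0.11 (0.1) and DGAT2 by 0.64 ± 0.32 (0.18) on the log2 scale. DGAT1 was lower in sgXIST7, at -0.57 ± 0.17 (edgeR adjusted p = 0.023). In sgXIST9 the values lay on the same side for PLIN2 (0.35 ± 0.22, edgeR adjusted p = 0.29), DGAT2 (0.51 ± 0.32, 0.3) and DGAT1 (-0.37 ± 0.17, 0.14). Both clones were compared with the same 3 sgCtl libraries, so these are not independent.

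In hypoxia, FABP5 was the only member called between a KD clone and sgCtl. It was lower in sgXIST7 by -1.08 ± 0.20 on the log2 scale (edgeR adjusted p = 0.0005), with 5.21 to 6.88 CPM against 8.68 to 16.8 CPM, 1 of 8 members beside 14.0% of the genes tested. The call was lost without hypoxia replicate 2 of sgCtl, at -0.85, and without that of sgXIST7, at -0.97. In sgXIST9 the difference was -0.53 ± 0.20 (0.055), and 0 of 8 members were called, beside 9.53%, with 2 at an unadjusted p under 0.05. DESeq2 called 0 there, beside 6.59% of its genes. DGAT1 was lower than in sgCtl by about the same amount in both KD clones, -0.77 ± 0.16 in sgXIST7 and -0.76 ± 0.16 in sgXIST9 (edgeR adjusted p = 0.0013 and 0.002; the same 3 sgCtl libraries in both), under the fold limit, with 14.8 to 18.4 CPM in the 6 KD libraries and 21.7 to 31.9 CPM in sgCtl. PLIN2 was 0.79 ± 0.22 and PLIN3 0.39 ± 0.11 higher in sgXIST7 than in sgCtl (edgeR adjusted p = 0.0079 and 0.0084), also under the fold limit. Without hypoxia replicate 3 of sgCtl the value for PLIN2 was 1.07 and it was called. HILPDA differed by 0.27 ± 0.51 (0.69) and DGAT2 by -0.48 ± 0.30 (0.22), with overlapping libraries.

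Between the KD clones in hypoxia 0 of 8 members were called, beside 4.46% of the genes tested, with 4 at an unadjusted p under 0.05. DESeq2 called 0, beside 3.48% of its genes. PLIN3 was higher in sgXIST7 (63.2 to 75.1 CPM) than in sgXIST9 (46.9 to 51.5 CPM), by 0.47 ± 0.11 on the log2 scale (edgeR adjusted p = 0.0067). PLIN2 differed by 0.67 ± 0.22 (0.041) and DGAT2 by -0.93 ± 0.30 (0.042), and DGAT2 was called, at -1.26, without hypoxia replicate 3 of sgXIST9. The response to hypoxia itself was compared between clones by the interaction term. None of the 8 members was called for sgXIST7 against sgCtl, beside 1.52% of the genes tested, for sgXIST9 against sgCtl, beside 1.01%, or for sgXIST7 against sgXIST9, beside 0.167%. At an unadjusted p under 0.05 there were 2, 1 and 2 members. DESeq2 called 0 in each, beside 2.39%, 1.61% and 0.661% of its genes. The log2 fold change of HILPDA was larger in sgXIST7 by 1.27 ± 0.74 than in sgCtl and by 1.45 ± 0.73 than in sgXIST9 (edgeR adjusted p = 0.28 and 0.34). The fall of FABP5 was deeper in sgXIST7 than in sgCtl, at -0.87 ± 0.28 (0.057), and this was called, at -1.08, without hypoxia replicate 3 of sgCtl.

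Other genes of the pathway were counted in 6 lists. Each count in hypoxia stands beside 19.7%, 27.3% and 23.3% of all genes tested that were called in sgCtl, sgXIST7 and sgXIST9. Of 12 genes tested for triglyceride and steryl ester synthesis, 3 rose and 1 fell in hypoxia in sgCtl, 4 rose and 1 fell in sgXIST7, and 2 rose and 1 fell in sgXIST9. LPIN2, a second lipin, rose by 1.60 ± 0.21, 1.95 ± 0.21 and 1.80 ± 0.21 on the log2 scale in sgCtl, sgXIST7 and sgXIST9 (edgeR adjusted p = 9e-06, 5.7e-07 and 1.7e-06). Its CPM was 35.4 to 36.4 in sgCtl normoxia, 117 to 144 in sgXIST7 normoxia and 88.9 to 106 in sgXIST9 normoxia, so that it was also higher in both KD clones without hypoxia, by 1.85 and 1.42 (edgeR adjusted p = 4.8e-06 and 7.1e-05). LPIN3, the third lipin, rose by 1.92 in sgXIST7 and 1.5 in sgXIST9 (edgeR adjusted p = 5.2e-05 and 0.00057), and its value in sgCtl was 0.87 (0.025). LPIN1 was thus the only lipin not called in any clone in hypoxia. GK, glycerol kinase, fell by 1.23, 2.07 and 1.30 in the 3 clones (edgeR adjusted p = 8.5e-05, 2.3e-07 and 3.2e-05). AGPAT5, an acyltransferase of mitochondria, rose by 1.15 and 1.04 in sgCtl and sgXIST7 and was at 0.91 in sgXIST9 (6.3e-06), under the fold limit. In sgXIST7 it was at 0.90 without normoxia replicate 2 and at 0.97 without hypoxia replicate 1.

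Uptake and activation of fatty acids held the highest log2 fold change in hypoxia among the genes named. VLDLR, a receptor for triglyceride-rich lipoproteins and a known hypoxia target, rose by 4.26, 4.45 and 5.77 on the log2 scale in sgCtl, sgXIST7 and sgXIST9 (edgeR adjusted p = 6e-07, 1.2e-07 and 5.5e-08). It had 3.33 to 5.05 CPM in sgCtl normoxia and 65.4 to 108 CPM in sgCtl hypoxia. In sgXIST7 it had 4.02 to 13.7 CPM and then 104 to 202 CPM. In sgXIST9, where the log2 fold change was largest, it had 0.956 to 1.25 CPM (18 to 28 counts) and then 42.8 to 82.4 CPM. Its mean in hypoxia was lowest in sgXIST9, at 61.0 CPM against 79.6 in sgCtl and 162 in sgXIST7. The fatty acid transporter SLC27A1 rose by 1.12, 1.28 and 2.31. SLC27A6 rose by 1.25 and 1.73 and SLC27A2 by 1.37 and 1.75 in sgXIST7 and sgXIST9, with 0.62 (0.0036) and -0.16 (0.6) in sgCtl, and in normoxia both were lower in these clones than in sgCtl, SLC27A6 by -1.68 and -1.92 and SLC27A2 by -2.11 and -2.72. Of the 13 genes tested in this list, 2 rose in sgCtl, 4 rose and 1 fell in sgXIST7, and 4 rose and 1 fell in sgXIST9. The shares over all genes tested were 19.7%, 27.3% and 23.3%.

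**Figure D5:**
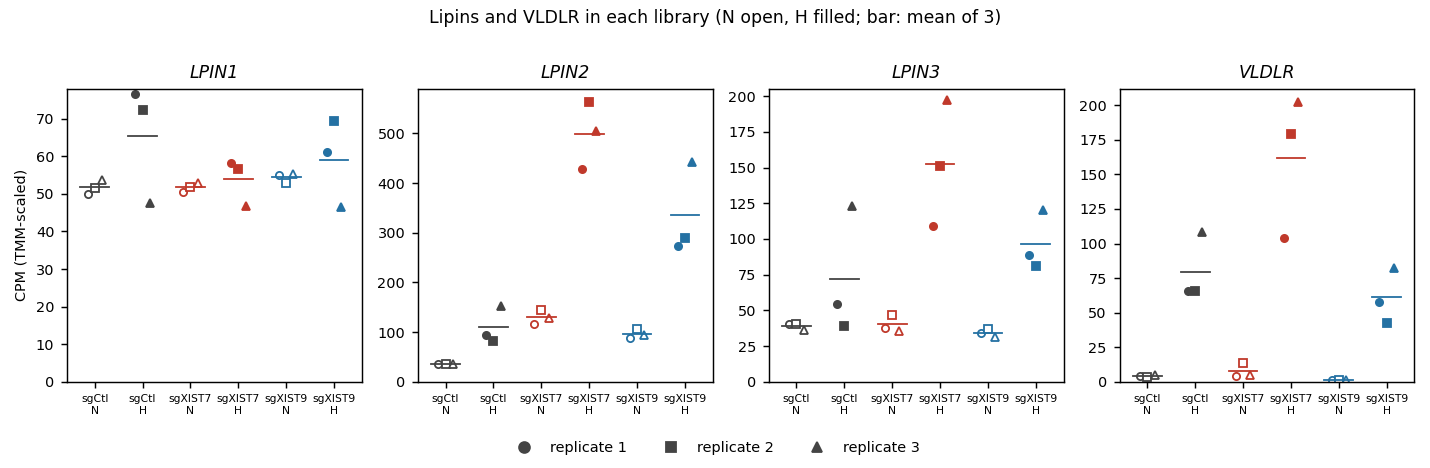
CPM of LPIN1, LPIN2, LPIN3 and VLDLR in each of the 18 libraries on linear axes from 0, with normoxia open, hypoxia filled and the mean of 3 as a bar. LPIN1 stays between 46.6 and 76.5 CPM, while LPIN2 runs from 35.4 CPM in sgCtl normoxia to 564 CPM in sgXIST7 hypoxia.

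Of 9 other genes of lipolysis tested, PNPLA3 and PNPLA7 were those called by edgeR in hypoxia, and both rose in sgXIST9, by 1.14 and 1.93 on the log2 scale (edgeR adjusted p = 9.7e-05 and 0.00084). PNPLA7 was also higher without overlap in sgCtl (1.39, 0.012) and sgXIST7 (0.96, 0.045), and PNPLA3 was at 0.22 (0.36) and 0.35 (0.11) there. Of 22 genes of mitochondrial fatty acid oxidation, 1 fell in sgCtl, 2 rose and 2 fell in sgXIST7, and 1 rose and 1 fell in sgXIST9. The shares over all genes tested, 19.7%, 27.3% and 23.3%, were above that of this list in each clone. CPT1A, which lets long-chain fatty acids into mitochondria, fell by 1.31 in both sgCtl and sgXIST7 (edgeR adjusted p = 0.00082 and 0.00054). In sgXIST9 the log2 fold change of CPT1A was -0.77 (0.023). HADH, a dehydrogenase of the same pathway, fell by 1.16 and 1.04 in sgXIST7 and sgXIST9, and in sgCtl it was at -0.84 (edgeR adjusted p = 0.0029), under the fold limit but without overlap. HADHB, a subunit of the trifunctional protein, rose by 1.51 and 1.07 in sgXIST7 and sgXIST9, the latter at 0.76 without hypoxia replicate 3 of sgXIST9, and was at 0.32 in sgCtl (0.27). ACAD11 rose by 1.88 in sgXIST7 and was at 0.98 in sgCtl (0.061) and 1.19 in sgXIST9 (0.022).

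Of 11 other coat and assembly genes tested, 1 rose in sgCtl, 2 rose and 1 fell in sgXIST7, and 1 rose and 1 fell in sgXIST9. This was no larger a share than the 19.7%, 27.3% and 23.3% of all genes tested. The 1 in sgCtl was PLIN1, the perilipin of adipocytes, which was also called in sgXIST7 and sgXIST9 (named after its values were seen). It had 0 to 1 counts in sgCtl normoxia and 18, 26 and 1 in sgCtl hypoxia, 3 to 6 and then 18, 26 and 6 in sgXIST7, and 1 to 4 and then 20, 14 and 12 in sgXIST9 (edgeR adjusted p = 0.00092, 0.0073 and 0.0062). The call was lost in sgXIST7 without normoxia replicate 1 or 3 or hypoxia replicate 1 or 2, and in sgXIST9 without any 1 normoxia replicate or hypoxia replicate 1 or 3, at edgeR adjusted p-values of 0.011 to 0.041. In sgCtl it was lost without replicate 1 of each group (edgeR adjusted p = 0.042) and without replicate 2 (0.024). TMEM41B, an endoplasmic reticulum scramblase, rose by 1.27 in sgXIST7, at 0.93 without its hypoxia replicate 3, and was at 0.33 in sgCtl and in sgXIST9 (0.32 in both). METTL7B, a droplet-associated methyltransferase, had 0.574 to 2.01 CPM in sgCtl normoxia, 33.9 to 40.6 CPM in sgXIST7 normoxia and 71.6 to 94.7 CPM in sgXIST9 normoxia. METTL7A, its relative, had 1 to 2 counts in the sgCtl normoxia libraries, 15 to 23 in sgXIST7 and 494 to 693 in sgXIST9. In hypoxia METTL7A fell by 1.86 in sgXIST7, to 3 to 6 counts, and by 1.18 in sgXIST9. Without hypoxia replicate 1 of sgXIST7 the first was at -1.54 (edgeR adjusted p = 0.011), and without hypoxia replicate 3 of sgXIST9 the second was at -0.96. VMP1 was lower in both KD clones in normoxia, by -1.61 and -1.54 (edgeR adjusted p = 1.7e-07 and 2.3e-07). Of 17 regulators of lipid storage, 3 rose and 1 fell in sgCtl, 2 rose and 1 fell in sgXIST7, and 2 rose and 1 fell in sgXIST9, beside the same shares of all genes. EPAS1, which codes for HIF-2α, rose by 2.29, 2.93 and 1.25, and SREBF2, a regulator of sterol synthesis, by 1.20, 1.11 and 1.12. The mean CPM of EPAS1 in sgCtl, sgXIST7 and sgXIST9 was 3.74, 8.17 and 14.0 in normoxia and 18.4, 62.2 and 33.2 in hypoxia. PPARGC1B, a coactivator of oxidative metabolism, fell by 1.64, 3.36 and 2.57. RXRB rose in sgCtl, by 2.49 (edgeR adjusted p = 0.0086), from 2 to 5 counts in normoxia to 7 to 42 in hypoxia. That call was lost without normoxia replicate 1, 2 or 3 (edgeR adjusted p = 0.032, 0.033 and 0.022) or hypoxia replicate 1 (0.012) or 2 (1.82, 0.069) of sgCtl, and the log2 fold change was 1.09 in sgXIST7 and -0.08 in sgXIST9. SREBF2 was at 0.91 in sgCtl without hypoxia replicate 3, and at 0.92 in sgXIST7 without normoxia replicate 1 or hypoxia replicate 2, under the fold limit.

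The genes with the profile most like that of HILPDA over the 18 libraries were GBE1, which branches glycogen, CA12, a carbonic anhydrase of the cell surface, and ARL6, a small GTPase of cilia. Their root mean square difference from HILPDA was 0.398, 0.413 and 0.442 on the log2 CPM scale after centring, where the profile of HILPDA itself had a root mean square of 1.27. For PLIN2 they were ALDH18A1, an enzyme of proline synthesis, RAP2A, a small GTPase, and DBNL, an actin-binding protein, with differences of 0.104, 0.146 and 0.165 against 0.704 for PLIN2 itself.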

How the data were processed

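RNA-seq of 18 OVCAR3-KRAB libraries in 6 groups of 3 was analyzed. Per the study's methods, libraries were strand-specific and rRNA-depleted, Trimmomatic and hisat2 (hg38) handled trimming and alignment, and featureCounts gave the gene counts. The deposited values are these raw counts by the authors. Strand and multi-mapping settings of the counting are not given in the sources used here. Of 28279 lines, 2 broken records with 0 counts were left out. Total counts per library had a median of 17629433, and values at 3 counts or fewer were taken as not detected.

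Differential expression was computed with edgeR 4.0.16 (R 4.3.3): glmQLFit with robust estimation and glmQLFTest, 6 groups, TMM factors of 0.859 to 1.115, a filterByExpr filter (count of at least 10, total of at least 15) and a prior count of 0.125. Standard errors are the log2 fold change over the root of its F statistic. Adjusted p-values in the text are from this fit over 14938 genes unless a setting is named. On simulated counts for hypoxia against normoxia in sgCtl, 200 of 200 genes changed by 2 on the log2 scale were recovered among 14552 genes. The simulation gave each gene the same dispersion, changed only genes with high counts and had no outlying replicate. It checks that the fit runs as intended and does not measure how well changes of the members are found. RPKM used CPM and exon lengths of the table, for DGAT1 the main chromosome alone. Comparisons of both KD clones share the sgCtl libraries, and those of oxygen and guide share groups.

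The members and lists were chosen with earlier results of these data known. Named were the 10 members, from each of 6 other lists the genes called in hypoxia in any clone or in both KD clones in normoxia (the 4 with the lowest adjusted p where more were called), XIST, and the 3 genes closest in profile to HILPDA and to PLIN2. Replicate numbers were checked for pairing by the correlation of deviations of same-numbered libraries over genes. It was over 0.1 in each of 3 pairs for sgCtl and sgXIST7 in normoxia (0.148 to 0.379) and for sgCtl and sgXIST9 in hypoxia (0.197 to 0.566). In the other comparisons it was not over 0.1 in each pair. In hypoxia, replicates 1, 2 and 3 were at 0.302, 0.0182 and 0.38 for sgCtl and sgXIST7. For sgXIST7 and sgXIST9 they were at 0.294, -0.0676 and 0.492. The fit of 6 groups had no replicate block, so its standard errors and p-values are unpaired for all of these comparisons. A block was fitted only as an alternative. Alternatives were DESeq2 1.42.0, other scalings, filters and thresholds, a fit of the groups compared, a replicate block, and libraries left out.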

Additional observations from a re-analysis of the deposited data

Results flagged for a closer look

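No member of the lipid droplet list had a response to hypoxia that differed between clones past the threshold. Of the other pathway genes named, 3 did, by edgeR's interaction term. The response of VMP1, an endoplasmic reticulum protein of droplet and autophagosome assembly, differed between sgXIST7 and sgCtl by 1.08 ± 0.19 on the log2 scale (edgeR adjusted p = 0.0034): its log2 fold change in hypoxia was 0.86 in sgXIST7 and -0.22 in sgCtl, neither called. The call was lost without normoxia replicate 3 of sgCtl (edgeR adjusted p = 0.013), its hypoxia replicate 1 (0.99, 0.012) or 2 (0.96, 0.009, under the fold limit), or normoxia replicate 1 of sgXIST7 (0.011). The response of SLC27A2, a fatty acid transporter and acyl-CoA synthetase, differed between sgXIST9 and sgCtl by 1.91 ± 0.36 (edgeR adjusted p = 0.0066), with 1.75 in sgXIST9 and -0.16 in sgCtl. It was lost, at edgeR adjusted p-values of 0.012 to 0.024, without any 1 of the normoxia replicates of either group, hypoxia replicate 2 of sgCtl or hypoxia replicate 1 or 2 of sgXIST9. The response of EPAS1 differed between sgXIST7 and sgXIST9 by 1.69 ± 0.27 (edgeR adjusted p = 0.006), with 2.93 and 1.25. Its mean in normoxia was lower in sgXIST7, at 8.17 CPM, than in sgXIST9, at 14.0 CPM, and in hypoxia higher, at 62.2 against 33.2 CPM. The call was lost, at edgeR adjusted p-values of 0.019 to 0.026, without normoxia replicate 1 or 3 or hypoxia replicate 2 of sgXIST7, any 1 normoxia replicate of sgXIST9, or its hypoxia replicate 1 or 2.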

How the results depend on the processing

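Of 1025 values of the members' log2 fold changes under alternatives, 956 kept their direction and side of the call, 44 were no longer called, 17 became called and 8 turned in sign. For the other genes named, 1575 of 1727 did, and 152 were no longer called. The members' values included differences that were not called, while uncalled ones of the other genes, such as AGPAT5 in sgXIST9, did not enter. These totals are thus of unlike sets and are not compared. Of the 8 turns, each from a library left out and each of a difference that was not called, 2 were of PNPLA2 in hypoxia in sgXIST7 (-0.09 to 0.43 over the libraries left out), 1 was of LPIN1 there (-0.01 to 0.18), 2 were of LPIN1 in sgXIST9 (-0.04 to 0.28) and 3 were of HILPDA between sgXIST7 and sgCtl in hypoxia (-0.14 to 1.19). The members called in hypoxia numbered 2 to 5 in sgCtl, 3 to 4 in sgXIST7 and 1 to 4 in sgXIST9 when libraries were left out. The share of all genes tested was then 10.5% to 22.2%, 21.4% to 27.4% and 14.5% to 23.2%. Members called numbered 0 to 2 for sgXIST7 against sgCtl in hypoxia, 0 to 1 for sgXIST7 against sgXIST9 in hypoxia and 0 to 1 for the response in sgXIST7 against sgCtl, the highest of the last without hypoxia replicate 3 of sgCtl. Beside these, 6.02% to 19.7%, 1.32% to 6.36% and 0.00675% to 7.83% of all genes tested were called. In a fit of the groups compared, 3 members were called in hypoxia in sgCtl, with or without replicate 3, 0 between sgXIST7 and sgCtl in hypoxia and 1 between sgXIST7 and sgXIST9 in normoxia, with or without replicate 3 (HILPDA). Of all genes tested, that fit called 16.6%, 7.92% and 4.21%. Without replicate 3 it called 23.7% in sgCtl and 1.75% between the KD clones in normoxia. In the fit of the groups compared, HILPDA was at an edgeR adjusted p of 0.015 in sgCtl and 0.019 in sgXIST9, and with no filter on low counts at 0.028 and 0.036. With no minimum fold change, 6 members were called in hypoxia in sgXIST9, beside 42.1% of the genes tested, and 4 between sgXIST7 and sgCtl in hypoxia, beside 27.6%. There was 1 between sgXIST9 and sgCtl in hypoxia, beside 17.9%, and 1 between the KD clones in hypoxia, beside 8.43%. The causes were not tested.

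The replicate block in the fit of 6 groups left 5, 4 and 3 members called in hypoxia in sgCtl, sgXIST7 and sgXIST9 and changed no count of members called. Beside these, 20.2%, 28.0% and 24.0% of the genes tested were called. The block in a fit of the groups compared, chosen after the data were seen like the fit of these groups without replicate 3, gave 5, 4 and 2, with 0 between sgXIST7 and sgCtl in hypoxia and 1 between the KD clones in normoxia, and HILPDA in hypoxia in sgXIST9 was then at 1.45 (edgeR adjusted p = 0.026). Of all genes tested, 16.5%, 28.6%, 22.0%, 12.7% and 4.12% were called in these comparisons. Depth limited G0S2 and FABP3, at or under 3 counts in each library.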
